A study of Mus musculus with 6 samples.

Results

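Guanylate-binding proteins (GBPs) and immunity-related GTPases (IRGs) are GTPases that macrophages make after exposure to interferons or bacterial products. The 8 genes described here were chosen by name as family members and not by their values: Gbp2, Gbp3, Gbp5 and Gbp7 of the GBPs, and Igtp, Irgm1, Irgm2 and Iigp1 of the IRGs, out of 18429 genes in the count table. Transcripts were counted in 1362 single mouse bone marrow-derived macrophages by MARS-seq, in which each sorted cell's mRNAs are counted at their 3′ ends through unique molecular identifiers (UMIs). The cells formed 6 samples: wild-type (WT) and Rad21-/- macrophages, each left untreated or given 10 ng/ml lipopolysaccharide (LPS), a bacterial cell wall component, for 2 h or 8 h. Rad21 encodes a subunit of cohesin, the ring complex that extrudes chromatin loops.

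WT macrophages came from mice with intact Rad21 alleles and Rad21-/- macrophages from mice with loxP-flanked Rad21 alleles, of a mixed strain background. Mice of both sexes, aged 6 weeks to 6 months, were used in the study. Both genotypes carried creERT2 on both Rosa26 alleles, a Cre recombinase that enters the nucleus with 4-hydroxy-tamoxifen, and both received 200 nM of that drug 96 h after plating. Cells were analysed on day 7 of culture in L929-conditioned medium. Deletion of Rad21 was thus induced during culture, and the WT cells had the same drug and the same Cre. Each genotype and time point was 1 sample, so that no difference below has a replicate check and no p-value is given. The question the design puts to these genes is how their expression over the LPS response differed between cells with and without Rad21, and whether it differed in the share of cells with transcripts or in transcripts per positive cell.

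GBPs assemble on pathogen-containing vacuoles and on bacteria in the cytosol, where they help to break membranes open and to start inflammasome signalling. IRGs fall into effectors such as Iigp1, which coat and disrupt the vacuole, and the regulatory IRGM proteins Irgm1, Irgm2 and Igtp, which sit on host membranes and hold the effectors inactive there. Both families are classical interferon targets: type I interferon acts at the interferon-stimulated response element (ISRE), and interferon-γ at the gamma-activated site (GAS). In macrophages, LPS leads to interferon-β production, so that interferon targets follow LPS with a delay.

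Gbp2 (chr3:142620663-142638008), Gbp3 (chr3:142560016-142573213), Gbp5 (chr3:142496934-142522344) and Gbp7 (chr3:142530336-142550151) lie in 1 cluster in GRCm38.p6. Igtp (chr11:58199556-58207592) and Irgm2 (chr11:58214977-58222783) are neighbours, and Irgm1 (chr11:48865245-48871420) lies elsewhere on chromosome 11. The bases just upstream of the RefSeq start sites are shown for the 7 members whose promoters were examined, so that the interferon elements named above can be looked for in them. The promoter of Iigp1 was not analysed here. Capitals mark matches on either strand to GAAANNGAA (a short form of the ISRE), TTCNNNGAA (GAS) or GGGANTTTC (a short form of the kappaB site, bound by NF-kappaB). The stretches run 5′ to 3′ on the strand of the gene and end at the base before the start site.
Gbp2, chr3:142620553-142620662, plus strand: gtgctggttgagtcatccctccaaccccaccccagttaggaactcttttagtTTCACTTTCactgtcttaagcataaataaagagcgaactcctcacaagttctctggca
Gbp3, first of 2 listed starts, chr3:142559934-142560043, plus strand: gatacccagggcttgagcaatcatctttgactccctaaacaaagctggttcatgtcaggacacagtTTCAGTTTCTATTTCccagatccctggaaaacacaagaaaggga
Gbp5, chr3:142496684-142496933, plus strand: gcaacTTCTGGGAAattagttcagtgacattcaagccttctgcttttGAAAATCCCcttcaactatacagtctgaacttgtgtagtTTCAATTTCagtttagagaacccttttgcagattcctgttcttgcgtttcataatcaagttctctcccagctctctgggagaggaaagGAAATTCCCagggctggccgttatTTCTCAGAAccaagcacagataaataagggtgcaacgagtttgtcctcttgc
Gbp7, chr3:142530226-142530335, plus strand: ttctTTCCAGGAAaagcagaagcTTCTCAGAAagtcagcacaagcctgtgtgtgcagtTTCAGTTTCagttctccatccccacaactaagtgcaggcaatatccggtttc
Igtp, chr11:58199446-58199555, plus strand: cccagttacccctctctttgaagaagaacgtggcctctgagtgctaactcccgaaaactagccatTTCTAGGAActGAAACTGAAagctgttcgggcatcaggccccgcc
Irgm1, chr11:48871421-48871530, minus strand: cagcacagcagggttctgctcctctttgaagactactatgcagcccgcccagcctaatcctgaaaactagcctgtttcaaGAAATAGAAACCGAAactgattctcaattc
Irgm2, chr11:58214867-58214976, plus strand: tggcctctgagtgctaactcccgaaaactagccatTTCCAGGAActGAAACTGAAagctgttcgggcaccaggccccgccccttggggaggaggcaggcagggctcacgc

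An ISRE-type match began 24 to 164 bases before the start in all 7 genes examined. Among 32851 promoter windows of 300 bases, from 250 before to 50 after a start, 8.56% held such a match. Gbp3 and Irgm1 held 2 overlapping matches each, and the second listed start of Gbp3 held none. A GAS-type match was present in Gbp5 and Gbp7 (2 each), Igtp and Irgm2, against 8.3% of all windows. The kappaB-type match was found in Gbp5 alone, beginning 203 and 76 bases before the start, against 1.11% of windows. Upstream of Igtp and Irgm2 the same arrangement was found, a GAS-type match followed after 2 bases by GAAACTGAA, and their 300-base windows were 73.5% identical in a global alignment. The other pairs of member windows were 43.9% to 54.2% identical. These are letter matches and not measured binding sites.

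The samples held 1417409 to 2195921 UMIs in all, with a median of 5577 to 7055.5 UMIs per cell. The cells came in 24 library pools, each of 1 time point and lettered here from A to X in the order of their names. A few wells were very deep (17 wells above 25000 UMIs, 5 of which held 45.5% of the UMIs of the WT 2 h sample). To even out depth, 3800 UMIs were drawn at random from every cell, 197 cells with fewer were dropped, and 1165 cells remained. Values below are UMIs per 100 thinned cells, the share of thinned cells with at least 1 UMI, and the log2 ratio of UMIs per thinned cell between 2 samples. Their 95% intervals cover counting error only and not the spread between cultures or animals. Rad21 itself stood at 26.6, 19.4 and 12.3 UMIs per 100 WT cells (untreated, 2 h, 8 h) and at 2.69, 2.60 and 2.96 per 100 Rad21-/- cells. All 8 macrophage markers examined were detected, Lyz2 and Cd68 in over 90% of thinned cells of each sample, while Cd3e, Cd3d and Cd79a were not in the table. The summed macrophage markers stood at 2960.5 to 4039 UMIs per 100 WT cells and at 2340.4 to 2629 per 100 Rad21-/- cells. The largest parts of this difference came from Lyz2 and Cd14. Lyz2 had 1433 to 2484 UMIs per 100 WT cells and 968 to 1306 per 100 Rad21-/- cells. Cd14 stood at 49.3 UMIs per 100 Rad21-/- cells against 235.4 per 100 WT cells untreated, at 177.9 against 691.5 at 2 h and at 390.6 against 721.5 at 8 h. Fcgr1 was also lower in Rad21-/- cells at each time. Cd68 (524 to 721 against 304 to 516) and Csf1r (113.3 to 187.01 against 51.8 to 117.6) were higher in Rad21-/- than in WT cells at each time. The part of these marker differences in the results below was not tested. Cd3g and Ms4a1, which macrophages should lack, were found in 1.35% to 4.55% of thinned cells of a sample. Of the 48 shares of the 8 GTPases in the 6 samples, 10 lay at or below 4.55% and are read as background.

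Igtp and Irgm2 were not counted independently in the table. In none of the 1362 cells did the Igtp count exceed the Irgm2 count, and all 319 cells with an Igtp UMI also had Irgm2, the counts being equal in 214 cells. The 18 other genes whose counts were never below those of Igtp were all abundant, with 13771 UMIs or more, whereas Irgm2 had 954 UMIs and Igtp 583. UMIs of Igtp thus appear to be included in the Irgm2 counts, which would leave 371 UMIs for Irgm2 alone, and results for Irgm2 are given with and without them. No other pair of the 8 members was nested in this way, so they amount to 7 separately counted genes.

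In untreated WT macrophages Irgm1 and Irgm2 were detected most often among the members, and each of the others was found in few cells. A share also depends on how well the 3′ end of a transcript is captured, so that shares and levels are compared between samples and not ranked as abundance between genes. Irgm1, which regulates the effector IRGs and autophagy, stood at 38.5 UMIs per 100 cells (95% interval 30.3 to 48.4) and was detected in 31.8% of thinned cells (42.3% unthinned). Irgm2 was at 25.5 per 100 cells and in 17.7% of cells (26.8% unthinned), and Igtp at 10.4 per 100 and in 8.85% (12.6% unthinned). Among the GBPs, Gbp3 was detected in 9.38% of cells, Gbp7 in 5.73%, Gbp2 in 3.65% and Gbp5 in 1.04%. The effector Iigp1 was detected in 4.69%. Gbp2 and Gbp5 lay below 4.55%, the highest share of a lymphocyte gene in any sample, and in this sample Cd3g was found in 3.12% and Ms4a1 in 2.08% of cells.

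At 2 h of LPS few members of WT cells lay beyond counting error of their untreated level, and those above it were GBPs. Gbp2 was at 13.9 UMIs per 100 cells against 4.69 untreated (log2 ratio 1.57, interval 0.41 to 2.87), and its share was 11.5% (28% unthinned). Gbp5, which promotes NLRP3 inflammasome assembly, was at 7.88 against 1.04 (2.92, interval 0.78 to 6.11), on 13 and 2 UMIs. These were the 2 intervals above 0, and the untreated shares of both genes were at background. Gbp7 stood at 12.7 against 6.25 (1.03, interval -0.06 to 2.18) and Gbp3 at 14.5 against 10.9 (0.41, interval -0.50 to 1.33). Of the IRGs, Igtp was at 16.4 against 10.4, Irgm1 at 31.5 against 38.5, Irgm2 at 24.2 against 25.5 and Iigp1 at 1.21 against 5.21, and all 4 intervals held 0. With the Igtp UMIs taken out, Irgm2 stood lower at 2 h than in untreated cells, at 7.27 against 17.2 (-1.24, interval -2.33 to -0.25). Of the 6 members with at least 30 thinned UMIs in the 2 samples together, 2 were past 2-fold higher (Gbp2 and Gbp7), where 4.32% of 7455 genes were. Gbp7 was just inside, and was short of 2-fold when any 1 of 7 pools was left out (0.82 to 0.96: A, D, G, H, K, M or P). The median log2 ratio over all 8 members was 0.53, against -0.10 over all genes tested.

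At 8 h of LPS all 8 genes stood far above their untreated level in WT cells. Gbp3 reached 246 UMIs per 100 cells and was detected in 91.2% of thinned cells (96.1% unthinned), and Gbp2 reached 214 and 88.2% (93.4% unthinned). The log2 ratio against untreated cells was 5.51 for Gbp2 (interval 4.57 to 6.65), which is 45.6-fold over a background share, and 4.49 for Gbp3 (3.87 to 5.20). Gbp5 was at 45.6 UMIs per 100 cells (5.45, interval 3.56 to 8.52, on 2 untreated UMIs) and Gbp7 at 87.3 (3.8, interval 2.97 to 4.78). Gbp7 was detected in 57% and Gbp5 in 33.3% of thinned WT cells at 8 h (72.4% and 50.2% unthinned).

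Iigp1 had the largest ratio among the IRGs, at 97.8 UMIs per 100 WT cells at 8 h against 5.21 untreated (4.23, interval 3.33 to 5.31). It was also the member with the sharpest step between 2 h and 8 h, from 2 to 223 thinned UMIs (6.33, interval 4.46 to 9.39). The 2 h share of Iigp1 was 1.21%, so that this fold rests on a background count. Igtp was at 73.7 per 100 cells at 8 h (2.82 against untreated, interval 2.15 to 3.57), Irgm2 at 99.1 (1.96, interval 1.51 to 2.43) and Irgm1 at 92.5 (1.26, interval 0.88 to 1.67). Without the Igtp UMIs the ratio of Irgm2 was 0.75 (interval 0.13 to 1.4). Irgm1 and Irgm2, detected most often before LPS, had the smallest ratios. All 8 members were past 2-fold higher, where 8.94% of 7894 genes were. Only Irgm1 (74 UMIs) and Irgm2 (49) reached the minimum of 30 thinned UMIs in untreated cells alone, and the other 6 members, with 2 to 21 untreated UMIs, reached it through the 8 h sample. The count is therefore fixed in part by the minimum and is given as a description. The median was 4.97 for the GBPs and 2.39 for the IRGs, against -0.25 over all genes tested.

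**Figure D1:**
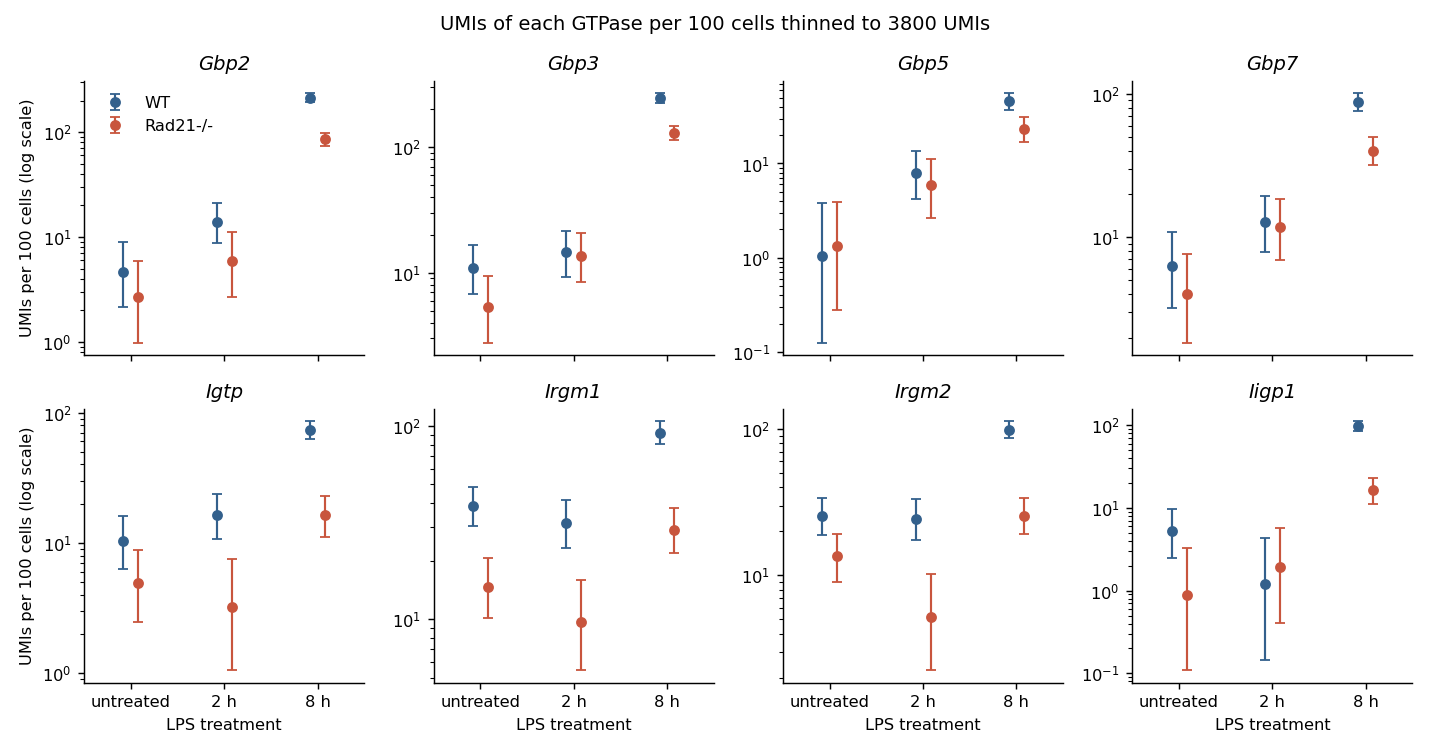
UMIs of each GTPase per 100 cells thinned to 3800 UMIs (vertical axis, logarithmic and scaled per gene) in untreated, 2 h and 8 h LPS macrophages, WT in blue and Rad21-/- in red. Points are 1 sample each and bars are exact 95% Poisson intervals for counting error. All 8 genes are highest at 8 h in both genotypes, and at 8 h the WT point lies above the Rad21-/- point for each gene, for example 97.8 against 16.3 for Iigp1.

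Rad21-/- macrophages had fewer IRG transcripts than WT cells before any LPS. Irgm1 stood at 14.8 UMIs per 100 Rad21-/- cells against 38.5 per 100 WT cells (log2 ratio -1.38, interval -2.02 to -0.77), and its share was 13.9% against 31.8% (21.9% against 42.3% unthinned). Irgm2 was at 13.5 against 25.5 (-0.92, interval -1.63 to -0.24), and without the Igtp UMIs its interval reached 0 (-0.80, interval -1.65 to 0.02). Iigp1 had 2 UMIs against 10 (-2.54, interval -5.77 to -0.31). The other intervals held 0: Igtp was at 4.93 against 10.4, Gbp3 at 5.38 against 10.9, Gbp2 at 2.69 against 4.69 and Gbp7 at 4.04 against 6.25, each lower in Rad21-/- cells. Gbp5 had 3 and 2 UMIs, too few for a ratio. Of the 4 members with at least 30 UMIs, 3 were past 2-fold lower (Irgm1, Igtp and Gbp3), where 5.21% of 8178 genes were. Igtp was not without pool A (-0.38), and Gbp3 was not when any 1 of 4 pools was left out (B, E, G or H, -0.98 to -0.54). Without pool G the ratio of Iigp1 was -3.38.

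At 2 h of LPS the genotypes differed at the IRGM genes and Gbp2, and not detectably at the other GBPs. Igtp was at 3.25 UMIs per 100 Rad21-/- cells against 16.4 per 100 WT cells (-2.33, interval -4.07 to -0.94), detected in 3.25% against 14.5% of cells (5.91% against 21% unthinned). Irgm1 was at 9.74 against 31.5 (-1.69, interval -2.63 to -0.84). Irgm2 was at 5.19 against 24.2 (-2.22, interval -3.53 to -1.11), of which the UMIs not shared with Igtp were 4.55 against 7.27 (-0.68, interval -2.26 to 0.78). The difference in Irgm2 at 2 h was thus carried mostly by UMIs that Igtp also had. In Rad21-/- cells at 2 h Igtp (5 UMIs) and Irgm2 (8 UMIs, in 4.55% of cells) were at the background share. Single library pools moved these values: without pool N the ratio was -3.46 for Irgm2 and -1.02 for Irgm1, and without pool M it was -3.26 for Igtp. Gbp2 was at 5.84 against 13.9 (-1.25, interval -2.55 to -0.09), whereas Gbp3 (13.6 against 14.5), Gbp7 (11.7 against 12.7) and Gbp5 (5.84 against 7.88) differed by less than counting error. Their log2 ratios were -0.09, -0.12 and -0.43, with intervals that reached -1.01, -1.12 and -1.84. Iigp1 had 3 and 2 UMIs. Of the 6 members with at least 30 UMIs, 4 were past 2-fold lower, where 6% of 6662 genes were, and Gbp2 was not without pool O (-0.96). Among these 4, Irgm1 and Irgm2 reached the minimum only through the WT sample.

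At 8 h of LPS all 8 genes stood lower in Rad21-/- cells, and each interval lay below 0. Iigp1 differed most, at 16.3 UMIs per 100 Rad21-/- cells against 97.8 per 100 WT cells (-2.59, interval -3.16 to -2.06), which is 6.02-fold. Igtp was at 16.3 against 73.7 (-2.18, interval -2.77 to -1.64), Irgm2 at 25.6 against 99.1 (-1.95, interval -2.42 to -1.51) and Irgm1 at 29.1 against 92.5 (-1.67, interval -2.11 to -1.25). Irgm2 without the Igtp UMIs stood at 8.87 against 28.9 (-1.71, interval -2.55 to -0.94). The GBPs differed less, with a median of -1.05 against -2.07 for the IRGs, which counts the Igtp UMIs in both Igtp and Irgm2. No GBP interval overlapped that of Igtp or Iigp1, while that of Irgm1 overlapped 3 of the 4. The interval of Irgm2 overlapped those of Gbp2 and Gbp7 as counted, and all 4 without the Igtp UMIs. Gbp2 was at 85.2 against 214 (-1.33, interval -1.58 to -1.07), Gbp7 at 39.9 against 87.3 (-1.13, interval -1.52 to -0.75), Gbp5 at 23.2 against 45.6 (-0.98, interval -1.51 to -0.47) and Gbp3 at 130 against 246 (-0.93, interval -1.14 to -0.71). Past 2-fold lower were 6 of 8 members, where 6.15% of 7687 genes were. The median over the 8 members was -1.50, against 0.17 over all genes tested.

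**Figure D2:**
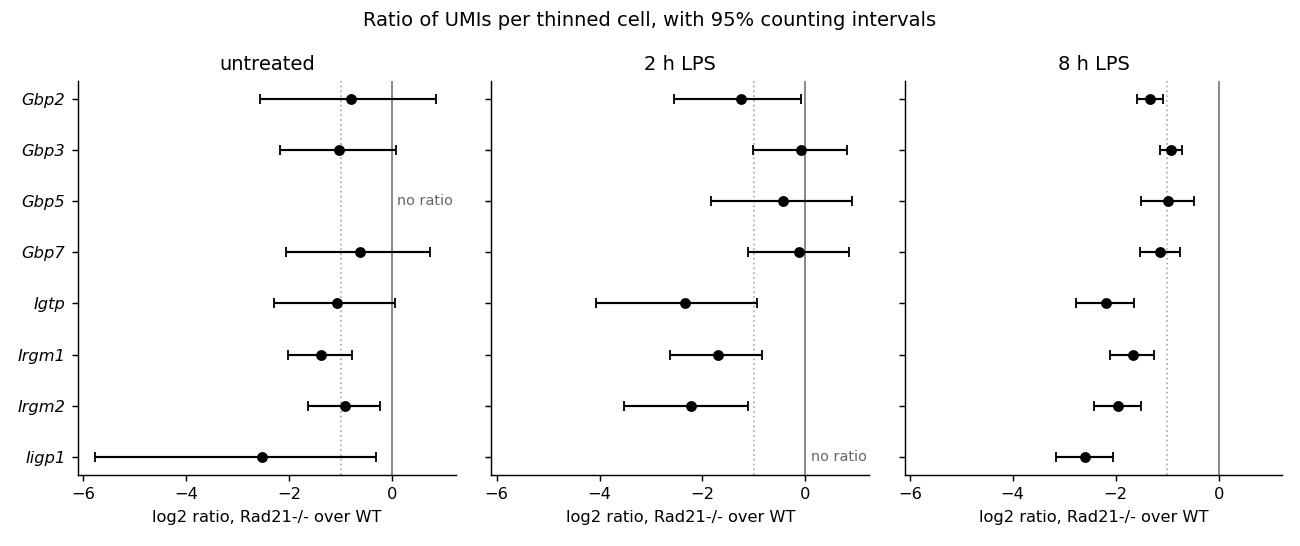
Log2 ratio of UMIs per thinned cell, Rad21-/- over WT (horizontal axis), for each GTPase in untreated, 2 h and 8 h macrophages. Points compare 1 sample with 1 sample, bars are exact 95% intervals for counting error, the dotted line marks 2-fold lower, and "no ratio" marks 3 or fewer UMIs in both samples. At 8 h the 8 points lie between -2.59 and -0.93 with each interval below 0, while at 2 h Gbp3, Gbp5 and Gbp7 have intervals that hold 0.

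Rad21-/- macrophages still responded to LPS at these genes. Between untreated and 8 h, Gbp2 went from 2.69 to 85.2 UMIs per 100 Rad21-/- cells (4.99, interval 3.83 to 6.45), Gbp3 from 5.38 to 130 (4.59, interval 3.76 to 5.56) and Iigp1 from 2 to 33 thinned UMIs (4.18, interval 2.21 to 7.28). The WT ratios were 5.51, 4.49 and 4.23. Untreated Gbp2 and Gbp5 in both genotypes, and untreated Gbp7 and Iigp1 in Rad21-/- cells, were at the background share, so that these folds rest on background counts. Gbp5 had 4.11 (interval 2.47 to 6.43, on 3 untreated UMIs) beside 5.45 in WT cells on 2, and Gbp7 had 3.31 (interval 2.31 to 4.49) beside 3.8. For Irgm2 and Igtp the fold was 0.93 (interval 0.25 to 1.63) and 1.72 (0.70 to 2.85) in Rad21-/- cells beside 1.96 and 2.82 in WT cells, and without the Igtp UMIs Irgm2 showed no higher level at 8 h than untreated in Rad21-/- cells (-0.15, interval -1.14 to 0.81). Irgm1 had 0.97 (interval 0.34 to 1.63) beside 1.26. Past 2-fold higher at 8 h were 6 of 8 members, where 7.71% of 8153 genes were. These 6 had 2 to 12 untreated UMIs and reached the minimum of 30 only through the 8 h sample, so that the count is a description, and the exceptions, Irgm1 (33) and Irgm2 (30), were the 2 that reached it untreated. Without pool H the ratio of Gbp5 was 5.50, and without pools A or G that of Iigp1 was 4.85 or 5.09. The difference between the 2 responses could not be tested with 1 sample each.

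At 2 h in Rad21-/- cells, 3 GBPs were above their untreated level by more than counting error: Gbp3 (1.34, interval 0.25 to 2.5), Gbp5 (2.12, interval 0.12 to 4.64, on 9 and 3 UMIs) and Gbp7 (1.53, interval 0.31 to 2.87). The untreated shares of Gbp5 and Gbp7 in these cells were at background. Irgm2 was below its untreated level as counted, with 8 UMIs against 30 (-1.37, interval -2.71 to -0.21). Without the Igtp UMIs its interval held 0 (-1.12, interval -2.59 to 0.16, on 7 and 22 UMIs). Irgm1 and Igtp had ratios of -0.60 each with intervals that held 0. Only Gbp3, Irgm1 and Irgm2 reached 30 UMIs in this comparison, of which Gbp3 was past 2-fold higher (4.12% of 7517 genes) and Irgm2 past 2-fold lower (3.35%). Irgm2 reached the minimum only through the untreated sample. Without pool N the ratio of Irgm2 was -2.39 and without pool O it was -0.99. That of Gbp5 was 3.52 without pool H and that of Igtp -1.58 without pool M.

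The log2 ratio of mean UMIs splits into a part from the share of positive cells and a part from UMIs per positive cell. The share part was the larger for all 8 members between untreated and 8 h, in both genotypes, with a median of 3.30 in WT and 3.55 in Rad21-/- cells, against 0.47 and 0.19 for UMIs per positive cell. In the WT response the part from UMIs per positive cell was largest for Gbp3 (1.21), which had 1.17 UMIs per positive cell untreated and 2.70 at 8 h, and for Gbp2 (0.91), with 1.29 and 2.42. At these counts the split depends on detection, since a cell with 1 or a few transcripts often gives no UMI.

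Between genotypes at 8 h the share part was the larger for 7 of 8 members, with a median of -1.06 against -0.43. Gbp3 was the exception, with -0.36 from the share and -0.56 from UMIs per positive cell: it was detected in 70.9% of Rad21-/- against 91.2% of WT cells (83.9% against 96.1% unthinned), at 1.83 against 2.70 UMIs per positive cell. Its WT share was near the ceiling, which limits the share part. Irgm2 was detected in 21.2% against 62.7% (37.5% against 73.9% unthinned), a difference of -41.5 percentage points (interval -49.4 to -32.6) and the widest among the members as counted. Without the Igtp UMIs the Irgm2 shares were 8.87% against 26.3%, a difference of -17.4 percentage points (interval -24.3 to -10.4). The widest gap was then that of Gbp2, at -36.4 percentage points. Gbp2 shares were 51.7% against 88.2% (73.7% against 93.4% unthinned) and Iigp1 shares 14.8% against 50.9% (22.3% against 65.4% unthinned). Igtp was detected in 13.8% against 48.2%, Irgm1 in 24.6% against 56.6%, Gbp7 in 30% against 57% and Gbp5 in 21.2% against 33.3% (unthinned 27.7%, 42%, 48.7% and 33.9% of Rad21-/- cells, and 61.5%, 69.3%, 72.4% and 50.2% of WT cells). Gbp5 had the smallest gap, -12.2 percentage points (interval -20.3 to -3.71). The median difference over the 8 members was -33.2 percentage points.

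**Figure D3:**
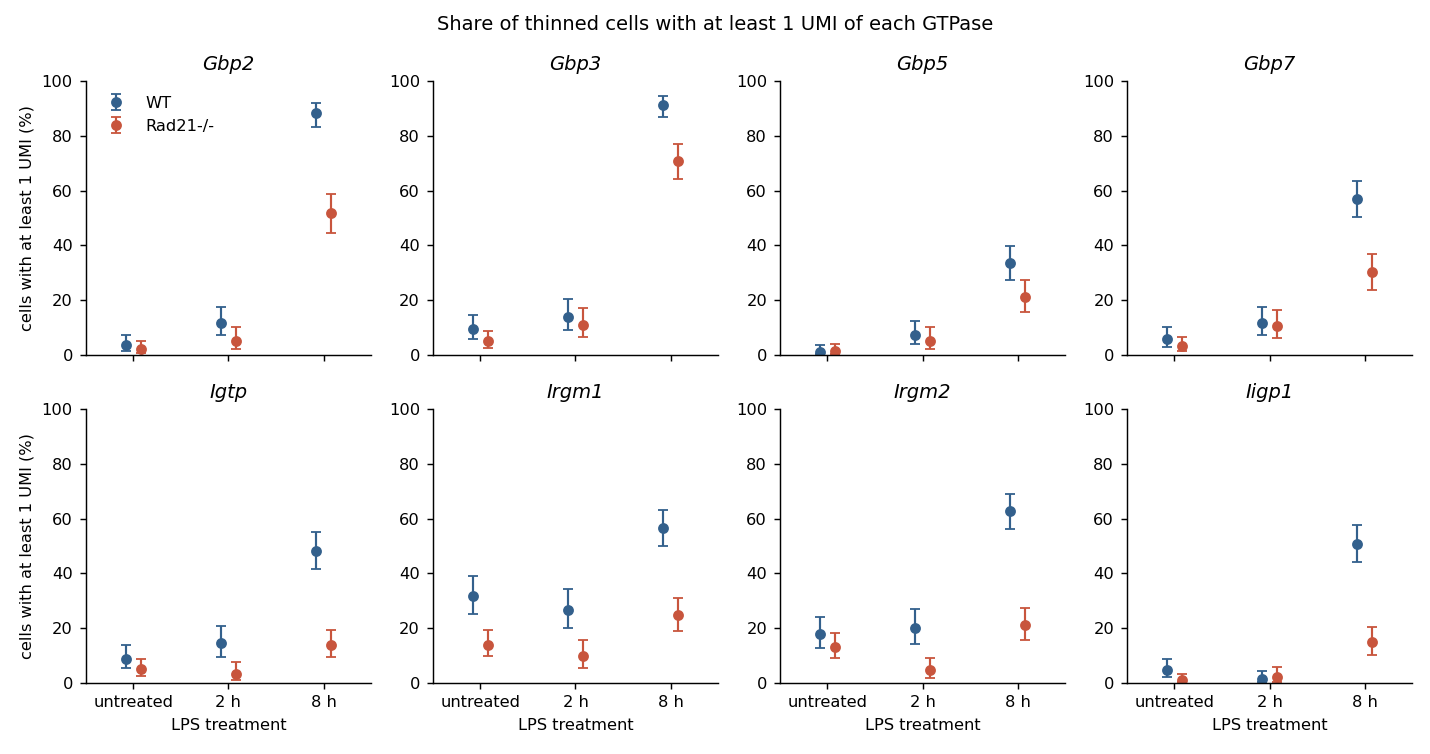
Share of cells thinned to 3800 UMIs in which each GTPase had at least 1 UMI (vertical axis, percent), by treatment, WT in blue and Rad21-/- in red. Points are 1 sample each and bars are exact 95% Clopper-Pearson intervals. At 8 h Gbp2 and Gbp3 are in 88.2% and 91.2% of WT cells, and the 2 genotypes are furthest apart at Irgm2 (62.7% against 21.2%). The Irgm2 counts shown include the Igtp UMIs, and without them its shares were 26.3% and 8.87%.

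Counted within single cells, fewer of the members were found together in Rad21-/- cells. At 8 h a thinned WT cell had a median of 5 of the 8 GTPases and a Rad21-/- cell a median of 2. At least 4 were detected in 82% of 228 WT cells (95% interval 76.4% to 86.8%) and in 22.7% of 203 Rad21-/- cells (17.1% to 29%). All 8 were detected in 6 WT cells and in none of the 203 Rad21-/- cells, which allows a share of up to 1.48% (3 counts over the number of cells). No WT cell was without any member at 8 h, which allows up to 1.32% by the same bound, and 7 Rad21-/- cells (3.45%) were. These counts include Igtp and Irgm2 as 2 genes.

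In many Rad21-/- cells GBP UMIs were detected without IRG UMIs. At 8 h, 46.3% of Rad21-/- cells had a GBP UMI but no IRG UMI, against 10.5% of WT cells, and cells with both were 44.3% and 89.5%. Taken singly, Gbp3 was in 70.9% and Gbp2 in 51.7% of Rad21-/- cells at 8 h, and the IRGs in 13.8% (Igtp) to 24.6% (Irgm1). A cell without an IRG UMI can still hold IRG transcripts, and the part of sparse detection in these patterns was not tested. Before LPS, 37.5% of WT and 24.2% of Rad21-/- cells had an IRG and no GBP, 7.81% and 7.62% a GBP and no IRG, and 44.8% and 64.1% neither. Summed over the 8 genes, the lowest, median and highest cell had 1, 9 and 26 UMIs in WT at 8 h, and 0, 3 and 15 in Rad21-/-.

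**Figure D4:**
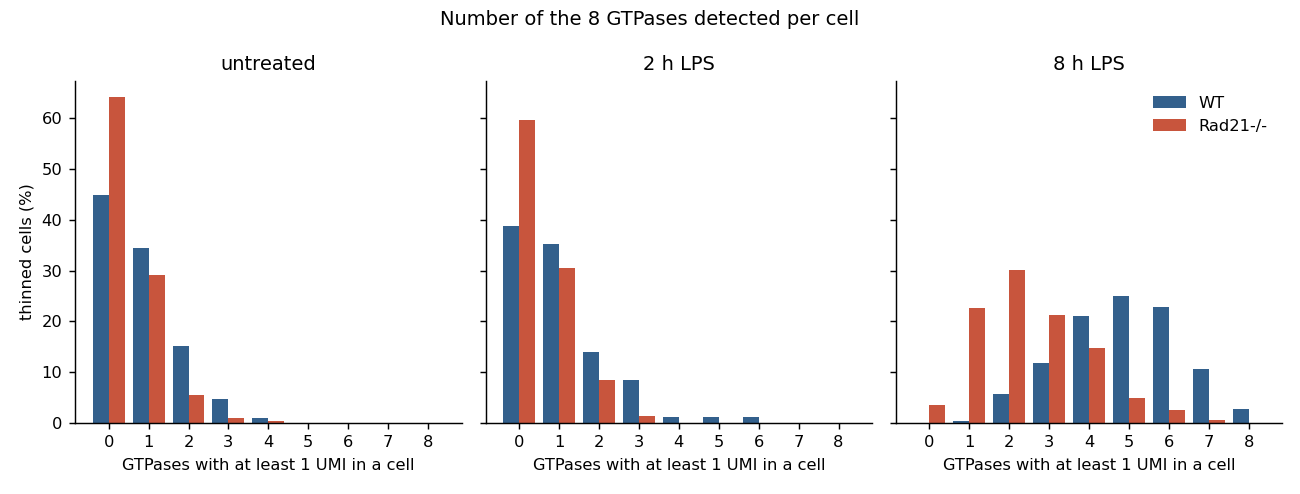
Number of the 8 GTPases with at least 1 UMI in a thinned cell (horizontal axis) and the percent of cells of the sample (vertical axis), WT in blue and Rad21-/- in red, for each treatment. At 8 h the WT cells centre on 5 genes and the Rad21-/- cells on 2, and before LPS 44.8% of WT and 64.1% of Rad21-/- cells have none.

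Within a sample the members were only loosely tied to one another. Leaving out the nested pair, Spearman's correlation of thinned UMIs for the 27 pairs ran from -0.23 to 0.23 over 228 WT cells at 8 h (median 0.07) and from -0.08 to 0.13 over 203 Rad21-/- cells (median 0.05). Igtp with Irgm2, the pair with nested counts, gave 0.60 and 0.46. Cells in a sample were thinned to the same number of UMIs, so that depth does not differ between these points, and such weak values in sparse counts are given as a description only.

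The lower level in Rad21-/- cells was seen in each library pool that could be compared. Of the 24 pools, 18 had 10 or more cells per genotype. The 8 genes summed stood lower in Rad21-/- cells in 8 of 8 untreated pools, 4 of 4 pools at 2 h and 6 of 6 pools at 8 h. At 8 h the pools ran from 773 to 1069 UMIs per 100 WT cells and from 337 to 454 per 100 Rad21-/- cells, and the ranges did not overlap. Each of the 8 genes was lower in Rad21-/- cells in all 6 pools at 8 h, and the ranges overlapped for Gbp5 only (18.2 to 65.5 in WT, 7.69 to 35.7 in Rad21-/-). How many of all genes were lower in every pool is not given here, so that this is a description. At 2 h Irgm1 ran from 20.0 to 53.7 in WT and from 2.70 to 12.5 in Rad21-/- cells over the 4 pools, whereas Gbp3 was lower in Rad21-/- cells in 2 of the 4. The labels do not tie pools to separate cultures or animals, so that pools are not counted as replicates of the genotype. Since no pool held more than 1 time point, time and pool cannot be told apart.

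**Figure D5:**
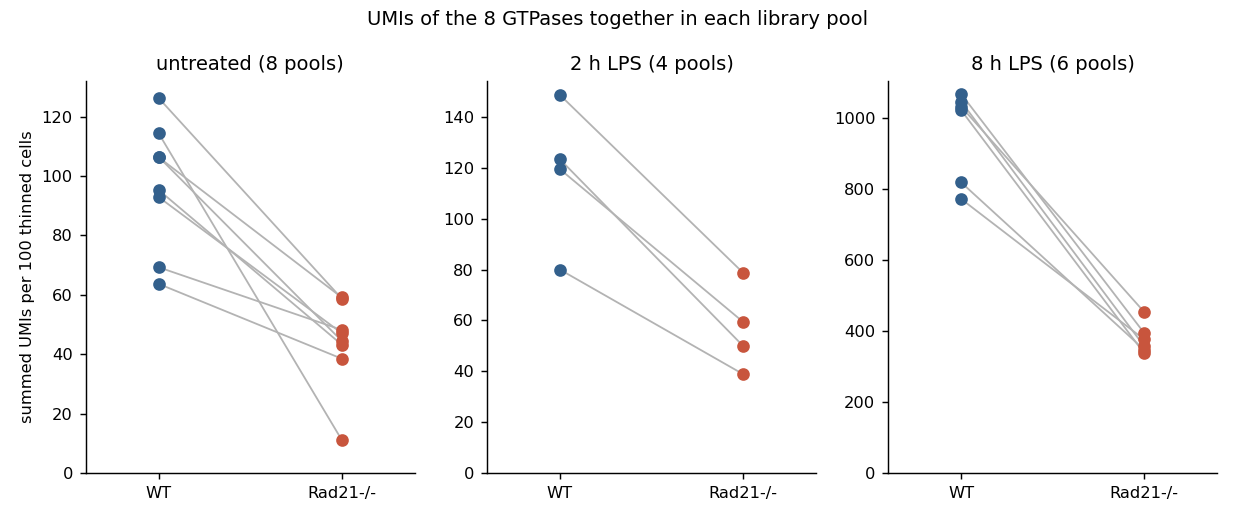
UMIs of the 8 GTPases together per 100 thinned cells (vertical axis, a separate scale from 0 in each panel) in library pools with at least 10 cells of each genotype, WT in blue and Rad21-/- in red, lines joining the values of 1 pool. Each of the 18 lines runs down from WT to Rad21-/-, at 8 h from 773 to 1069 in WT to 337 to 454 in Rad21-/-.

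The other genes of the 2 families with enough UMIs were also lower in Rad21-/- cells at 8 h. Of 19 further GBP and IRG genes examined, 18 were in the table and Gbp2b was not. Between the 2 genotypes at 8 h, 10 reached 30 UMIs, and 10 of 10 were past 2-fold lower in Rad21-/- cells, where 6.15% of all genes tested were, with a median of -1.94. Only Gbp6 and Ifi47 reached 30 UMIs in Rad21-/- cells alone. The others had 3 to 21 UMIs there and reached the minimum only through the WT sample. This count is therefore fixed in part by the minimum and is given as a description. Ifi47, an effector IRG, stood at 65.03 against 130 UMIs per 100 cells (-1, interval -1.31 to -0.70), Gbp6 at 17.7 against 48.7 (-1.46, interval -2.04 to -0.90) and Gm4951, a further IRG, at 8.87 against 35.1 (-1.98, interval -2.81 to -1.23). Gbp8 was at 10.3 against 38.6 (-1.90, interval -2.66 to -1.20) and Gbp9 at 8.87 against 30.3 (-1.77, interval -2.61 to -1.01). Both ratios were further from 0 than that of Ifi47, unlike the smaller differences of the 4 GBPs above. Several of these rows are nested as Igtp is in Irgm2: Gbp4 in Gbp9 and in Gbp8, Gbp9 in Gbp8, Gbp10 in Gbp6 and Ifi47 in Olfr56, so that the 10 are not 10 separate counts. In the WT response 10 of the 11 with enough UMIs were past 2-fold higher at 8 h than untreated, where 8.94% of all genes tested were, a count that the minimum again fixes in part (median 3.27, with Gm4841, at 0 untreated, set at its bound of 3 counts).

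Upstream of the GTPases, the interferon-β gene Ifnb1 was detected at 2 h only, with 31 thinned UMIs in WT cells (18.8 per 100) and 2 in Rad21-/- cells (1.30 per 100), a log2 ratio of -3.85 (interval -6.96 to -1.88). The interferon-γ gene Ifng was not in the table. Of the 5 interferon ligand and receptor genes present, 2 of 4 tested were past 2-fold lower in Rad21-/- cells at 2 h (Ifnb1 and Ifngr1, at 22.7 against 53.3), where 6% of all genes were, and 0 of 3 at 8 h, where 6.15% were.

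The signalling and transcription factor genes that carry the interferon signal differed as well. Irf7, which amplifies type I interferon production, was at 39.5 UMIs per 100 Rad21-/- cells against 185.9 per 100 WT cells untreated (-2.24, interval -2.59 to -1.90), at 34.4 against 107 at 2 h and at 128.6 against 333.8 at 8 h. Irf1 behaved differently over time, at 147.4 per 100 Rad21-/- cells against 110 per 100 WT cells at 2 h (0.42, interval 0.13 to 0.71) and 26.1 against 64.5 at 8 h (-1.30, interval -1.79 to -0.84). Past 2-fold lower in Rad21-/- cells were 3 of 8 tested untreated, 3 of 8 at 2 h and 5 of 10 at 8 h, where 5.21%, 6% and 6.15% of all genes were.

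The genes of the ATG8 conjugation system, which GBPs and IRGs need to find their target membranes, did not share the lower level. Of 9 tested at 8 h none was past 2-fold lower in Rad21-/- cells and 2 were past 2-fold higher (8.01% of 7687 genes were), Gabarapl1 (18.2 against 7.02 UMIs per 100 cells) and Gabarapl2 (22.7 against 9.21), with a list median of 0.26. Among 6 inflammasome genes, Casp1 was past 2-fold lower at 8 h (40.4 against 111 UMIs per 100 cells, -1.45, interval -1.83 to -1.09) and Nlrp3 past 2-fold higher (49.8 against 20.2, 1.30, interval 0.79 to 1.84). Casp4, which senses the LPS that GBPs uncover, stood at 70.9 against 111 (-0.65, interval -0.96 to -0.35).

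Genes outside the list were ranked by how closely their log2 levels over the 6 samples, centred on the gene's own mean, followed the median of the 8 members. Of 7084 genes with at least 100 thinned UMIs, the nearest 10 were Gm18445 (a pseudogene), Gbp6, Usp18, Slc15a3, Car13, Pnp, Ms4a4c, Isg15, Ifi44 and Acsl1, at distances of 0.71 to 1.01, where the median gene was at 4.05. The members themselves lay at 1.12 (Gbp7) to 2.32 (Iigp1) from their own median profile, with 15 to 202 genes outside the list nearer to it. Isg15, a ubiquitin-like interferon target, stood at 162.5, 344 and 1691 UMIs per 100 WT cells and at 42.2, 134 and 924 per 100 Rad21-/- cells (untreated, 2 h, 8 h).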

How the data were processed

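Single macrophages were sorted into 384-well plates and libraries prepared by MARS-seq. The authors mapped reads with GEMTools 1.7.0 to GRCm38.p4 with Gencode M8, kept uniquely mapped reads, merged UMIs within an edit distance of 2, and removed wells over 15% spike-in reads, below 60% mapped or with too many reads. The deposited values are UMI counts per gene and cell. The stated filter on genes in under 5% of cells is not visible in the table, where 5709 of 18429 genes lie below it. Cells were assigned to samples by the names in the table.

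Cells were thinned to 3800 UMIs (seed 20; Python 3.11.15, numpy 2.4.6, scipy 1.17.1). Shares have exact Clopper-Pearson intervals, UMI sums exact Poisson intervals, log2 ratios exact conditional intervals, and differences in share Newcombe intervals, all at 95%. Doublets were not called. With 1 sample per group no test was run: a gene was counted as past 2-fold at an absolute log2 ratio of 1 or more, among genes with at least 30 thinned UMIs in both samples together; a count of 0 was set to 3. No ratio is given where both samples had 3 UMIs or fewer. Genes were called nested in another on the same chromosome where, with 50 UMIs or more, they exceeded it in no cell and it had fewer than 2000 UMIs. The code was tested on simulated data. Alternatives were another thinning depth, no thinning, size factors, left-out wells and pools, and within-pool values; taking the Igtp UMIs out of Irgm2 was added after seeing the data. The genes named are the 8 members, the fixed lists of family, interferon and partner genes, and the 10 nearest in pattern; members and lists were chosen with earlier results of these data known. Promoters and positions are from RefSeq (GRCm38.p6).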

Additional observations from a re-analysis of the deposited data

Results flagged for a closer look

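Igtp at 2 h of LPS lay above its untreated level in WT cells (log2 ratio 0.65, on 27 and 20 UMIs) and below it in Rad21-/- cells (-0.60, on 5 and 11 UMIs), with 1 sample on each side. Both intervals held 0 and the difference was not tested.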

How the results depend on the processing

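The median log2 ratio of the members kept its sign under each alternative run. At 8 h it ran from -1.59 to -1.32 for Rad21-/- against WT and from 3.76 to 4.27 for WT against untreated. At 2 h it ran from -1.60 to -0.71 between genotypes (-1.25 as reported), from 0.42 to 1.12 for WT against untreated (0.53) and from 0.80 to 1.56 for Rad21-/- against untreated (1.12), which at 8 h ran from 3.12 to 4.07 (3.71). Of 69 member ratios, 13 moved by over 1.5 times when 1 pool was left out. The median difference in share moved with the depth and the definition of a positive cell. For WT at 8 h against untreated it was 45.6 percentage points, 54.8 with cells thinned to 5500 UMIs, 54.01 unthinned and 21.2 when a positive cell needed 2 UMIs. For WT at 8 h against 2 h it was 44.1, and 52.3 at 5500 UMIs, 34.9 with equal weight per library pool and 21.7 from 2 UMIs. In Rad21-/- cells it was 26.6 unthinned and 3.02 from 2 UMIs (16.9 as reported) for 8 h against untreated, and 24.0 and 3.37 (16.3 as reported) for 8 h against 2 h. Between genotypes at 8 h it was -20.9 from 2 UMIs, against -33.2. Some differences in share changed sign. From 2 UMIs these were Irgm2 in Rad21-/- cells at 2 h against untreated (0.20) and Gbp2 between genotypes at 2 h (0.043). With the Igtp UMIs taken out it was Irgm2 in Rad21-/- cells at 8 h against untreated (-0.55). The median difference in share for WT at 2 h against untreated ran from -0.175 to 9.76 over the alternatives. With wells or pools left out, the sign also changed for Gbp7 between genotypes at 2 h and for Gbp5 between untreated genotypes. The same held for Iigp1 in Rad21-/- cells at 2 h against untreated. No paired analysis was possible because the labels give no replicate numbers and each group is 1 sample. Compared within the library pools that both genotypes share, the median log2 ratio was -0.94 untreated, -1.47 at 2 h and -1.45 at 8 h, against -1.02, -1.25 and -1.50. Depth limits the untreated and 2 h values, several of which rest on fewer than 10 UMIs.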
